A study of Mus musculus with 16 samples.

Results

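The genes described here take long-chain fatty acids into a cell and activate them: Cd36, Slc27a1, Slc27a4, Cav1, Cav2, Fabp3, Acsl1 and Acsl4. They were chosen by name from this pathway, with earlier results of these data known, as 8 of the 22367 protein-coding genes of the mouse annotation. Each was read in a window that runs from 50 kb before to 50 kb after its annotated body on mm9 (NCBIM37). The measurements were 16 lists of ChIP-seq islands, that is, stretches of the genome where sequenced chromatin fragments passed a caller's threshold. All came from 3T3-L1 cells, a mouse preadipocyte line that turns into fat-storing adipocytes when a confluent culture receives insulin, dexamethasone and isobutylmethylxanthine (the MDI cocktail). The study asked how SETD5, a chromatin protein that carries a SET domain, acts on enhancers during this differentiation.

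Acetylation of histone H3 at lysine 27 (H3K27ac), a mark of active promoters and enhancers, was profiled at 0 h (day 0) and 48 h (day 2) of differentiation in preadipocytes with the empty vector and in preadipocytes with the SETD5 vector, with 2 lists (replicates A and B) for each of the 4 groups. SETD5-V5, an overexpressed SETD5 with a V5 tag from a stably transduced line, was profiled with the tag's antibody at 0 h and 6 h, with 2 lists at each time. The labels give the virus SETD-V5 for replicate B of SETD5-V5 and a dash for replicate A. Mono-methylation of histone H3 at lysine 4 (H3K4me1), a mark of enhancers both before and after their activation, had 1 list at 0 h and 1 at 48 h. Its labels name the SETD-V5 virus, while the methods describe untransduced cells, so the vector behind these 2 lists cannot be told from the sources. Endogenous SETD5, caught with the monoclonal antibody IgG-F2104 in cells without a virus, had 1 list at 0 h and 1 at 6 h.

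Fatty acids cross the adipocyte membrane with the help of CD36, a scavenger receptor, and of the SLC27 family of fatty acid transport proteins, while caveolins build the membrane pits known as caveolae, which are abundant in fat cells. Inside the cell, fatty acid binding proteins carry the lipid through the cytosol, and acyl-CoA synthetases couple it to coenzyme A, the step that commits it to triglyceride synthesis or oxidation. The C/EBP factors and PPARγ, which binds DNA together with RXR, are the textbook regulators that turn on the lipid genes of adipocytes.

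The 8 H3K27ac lists held 31292 to 39949 islands that covered 103 to 122 Mb. At 48 h the SETD5 lists held more and shorter islands (39068 and 39451, median 2000 and 2200 bp) than the empty-vector lists (31292 and 33131, median 2800 and 2400 bp). SETD5-V5 had 16054 and 6666 islands at 0 h (replicates A and B) and 35573 and 27220 at 6 h, so the 0 h list of replicate B stood apart as the smallest of the 4. H3K4me1 had 50276 and 49926 islands and endogenous SETD5 2132 and 3293. Both empty-vector lists held an island at the start of all 6 of 6 preadipocyte markers at 0 h and at 48 h, and of 3 of 6 adipocyte markers at 0 h against 6 of 6 at 48 h (Fabp4, Adipoq and Plin1 were added), while 0 of 9 markers of immune, endothelial, epithelial or muscle cells had one. An island was taken as at a start where it overlapped the stretch from 1000 bp before to 100 bp after it. A gene without an island lay below the caller's threshold in that list, which does not show that the mark was absent. The readout was the covered length, the kilobases of a window that islands of one list cover. Cultures were read in bulk, so a mark that spread in every cell and a mark present in more of the cells cannot be told apart.

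Over the 8 genes, the rise of H3K27ac with differentiation was largest at Acsl1, and at 48 h the windows of Acsl1, Cd36, Cav1 and Cav2 held less H3K27ac with SETD5 than with the empty vector. Between 0 h and 48 h with the empty vector, 3 of the 8 windows rose (Acsl1, Cav1 and Acsl4) and 0 fell, where 39.2% of all 17041 windows tested changed, 25.2% upward and 14% downward (limma, adjusted p under 0.05 over all windows). With the SETD5 vector, 1 window rose (Acsl4) and 2 fell (Cd36 and Slc27a1), where 28.4% of all windows changed, 15.8% upward and 12.6% downward. Before differentiation 0 of the 8 windows differed between the vectors by limma, against 2.54% of all windows, 1.62% upward and 0.921% downward. At an unadjusted p under 0.05 by limma the window of Cav1 alone did, lower with SETD5, where 2670 windows in all (15.7%) did so in either direction. At 48 h, 4 of the 8 windows were lower with SETD5 than with the empty vector and 0 higher, against 8.65% lower and 7.48% higher among all windows. The windows of Cav1 and Cav2 share most islands, yet both count among these 4 and in the other counts and medians given here. The balance of all calls at 48 h moved with the processing: 46.4% were upward, against 30.3% with equal numbers of islands and 76.9% by the number of islands. The change from 0 h to 48 h itself differed between the vectors at Acsl1 and Cd36, in both toward lower values with SETD5, where 2.13% of all windows differed in that direction and 3.63% in either. Without overlap between the lists of the 2 groups, 5 windows were higher at 48 h with the empty vector and 0 lower (41.1% and 23.6% of all windows), 2 higher and 4 lower with SETD5 (32.5% and 31.3%), 2 higher and 1 lower with SETD5 than with the empty vector at 0 h (25.3% and 14.3%), and 1 higher and 7 lower at 48 h (22.5% and 34%). The median difference over the 8 windows on the log2 scale was 0.39 for 48 h against 0 h with the empty vector, beside 0.14 over all windows, and -0.65 for SETD5 against the empty vector at 48 h, beside -0.069 over all windows. These comparisons draw on the same 8 lists and share groups, and p-values measure only the spread between the lists of a group.

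**Figure D1:**
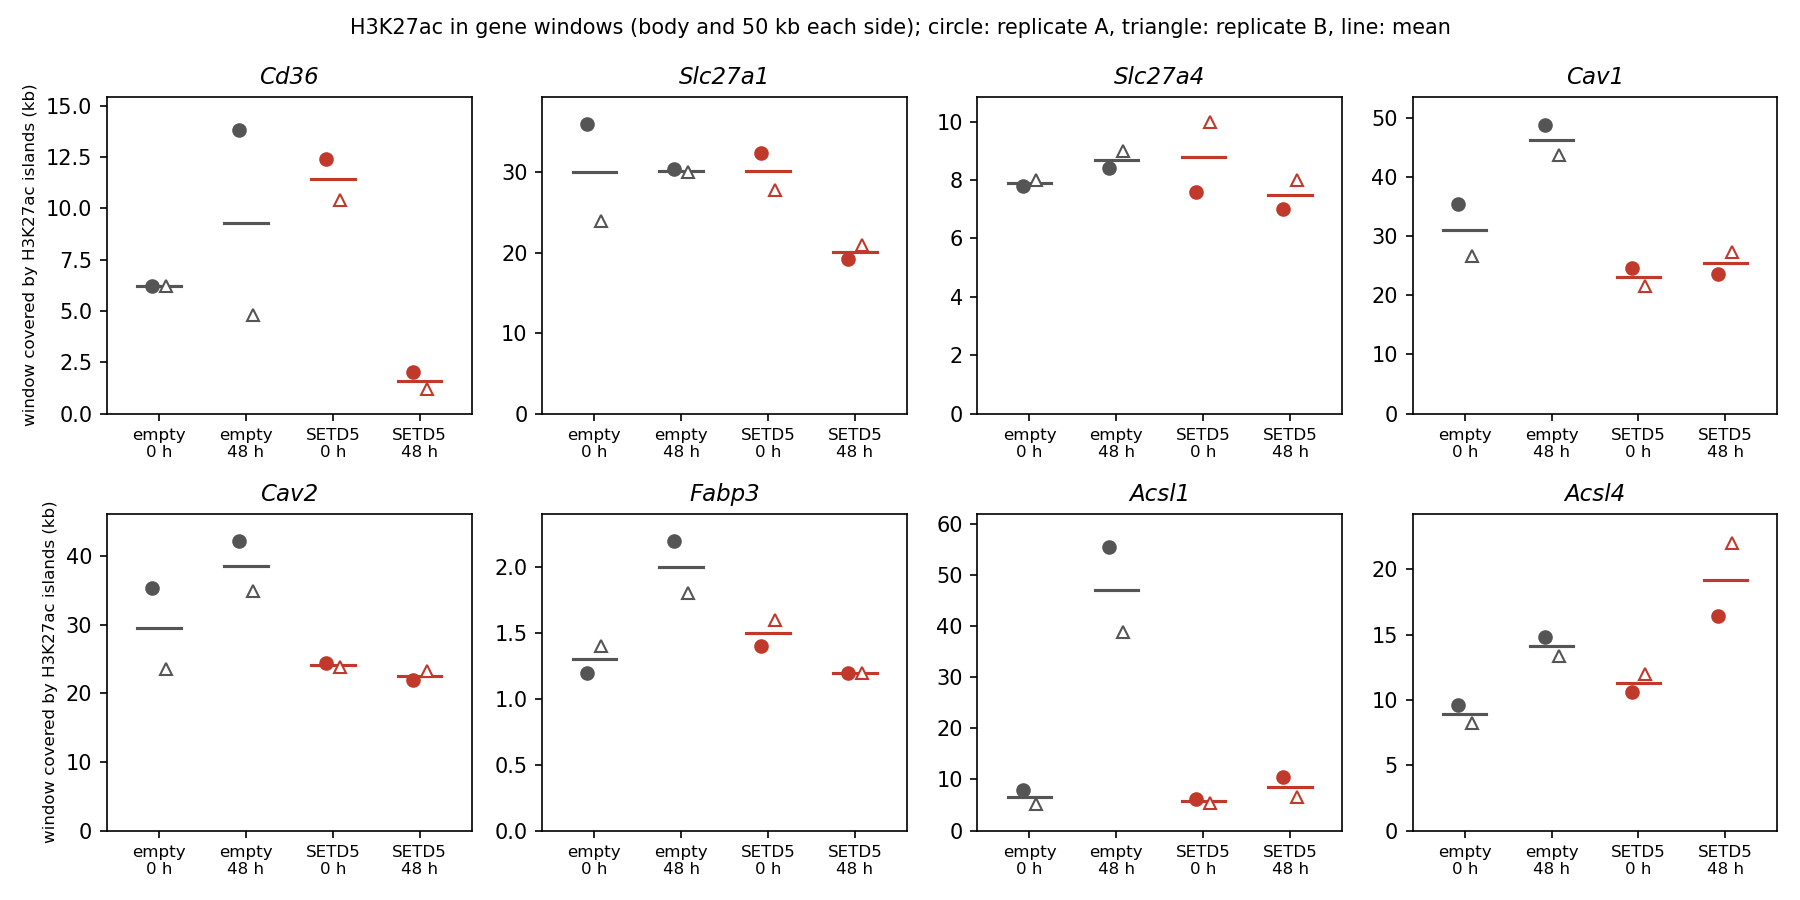
Kilobases of each gene window (gene body and 50 kb on each side) covered by H3K27ac islands, by vector and time. Each point is 1 list and each line marks the mean of the 2 lists of a group. The empty-vector lists of Acsl1 climb from 8.0 and 5.2 kb to 55.4 and 38.8 kb, those with SETD5 end at 10.4 and 6.6 kb, and the SETD5 lists of Cd36 drop to 2.0 and 1.2 kb.

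Cd36 encodes the fatty acid translocase, the main scavenger receptor for long-chain fatty acids in fat cells. The gene (ENSMUSG00000002944.8) lies on the minus strand at chr5:17287508-17394777 and has no other coding gene in its window of 207 kb. Its annotated transcripts start at 3 positions, 17394777 (the outermost), 17355610 and 17341714 (the innermost). With the empty vector the islands covered 6.2 kb in both lists at 0 h, and 13.8 kb (replicate A, 6 islands) and 4.8 kb (replicate B, 3 islands) at 48 h. The 48 h lists lay on either side of the 0 h value, and the difference did not pass the test (log2 difference 0.36 ± 0.38, SE; limma, adjusted p = 0.491). With SETD5 the islands covered 12.4 and 10.4 kb at 0 h and 2.0 and 1.2 kb at 48 h, a single island in each. That fall passed the test (log2 difference -2.27, 95% interval -3.12 to -1.41, limma, adjusted p = 0.00236), as did the difference from the empty vector at 48 h (-1.85, adjusted p = 0.0131, limma) and the difference between the 2 changes (-2.63 ± 0.53, SE, adjusted p = 0.0372, limma). The difference from the empty vector was lost without either SETD5 48 h list (adjusted p = 0.0675 without replicate A and 0.116 without replicate B). The difference between the changes was lost without any one list other than replicate B of the empty vector at 48 h, with adjusted p up to 0.147.

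The covered length hides a change of place at Cd36. At 0 h the 3 islands of both empty-vector lists lay past the far end of the gene, with the segments they share centred 82.1, 89.2 and 96.0 kb downstream of the innermost start (chr5:17244801-17246600, chr5:17251601-17253400 and chr5:17258801-17260400), each in intergenic sequence. All 3 were also present in both SETD5 lists at 0 h, where the longest island reached 4.4 kb in each replicate, and all 3 carried H3K4me1 at 0 h. None of the 4 H3K27ac lists at 48 h held any of them, and H3K4me1 had no island there at 48 h either. In their place both empty-vector lists at 48 h shared 3 segments that neither 0 h list held. One lay in an intron at -3.79 kb from the innermost start (chr5:17344801-17346200), one in an intron 12.1 kb downstream of the outermost start (chr5:17382001-17383400) and one in intergenic sequence at -39.8 kb from the outermost start (chr5:17433801-17435400). H3K4me1 marked all 3 at 48 h and none of them at 0 h. Of these, the segment in the intron behind the outermost start was the only one that the SETD5 lists held at 48 h, in both replicates. The other 2 were absent from both. Because the lost islands sat far from the body, the window decided the direction: with 20 kb on each side in place of 50 kb the empty-vector difference was 2.82 (adjusted p = 0.0336, limma) and that with SETD5 was 0.86 (adjusted p = 0.468, limma).

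The starts of Cd36 themselves were nearly bare. Only replicate A of the empty vector at 48 h had an island over the innermost start, 3.8 kb long. H3K4me1 at 48 h had an island just upstream of it (chr5:17341801-17344000) that did not cover the start. The ranks were modest: the highest-scoring island of the window at 48 h had 47.5% of its list above it in replicate A and 64.0% in replicate B. The 250 bases upstream of the innermost start (minus strand) are printed with the CpG dinucleotides in capitals, since this is the start that gained its only island at 48 h, and the stretches around motif matches in the 3 gained segments follow with the match in capitals.
Cd36 upstream, chr5:17341715-17341964 minus strand: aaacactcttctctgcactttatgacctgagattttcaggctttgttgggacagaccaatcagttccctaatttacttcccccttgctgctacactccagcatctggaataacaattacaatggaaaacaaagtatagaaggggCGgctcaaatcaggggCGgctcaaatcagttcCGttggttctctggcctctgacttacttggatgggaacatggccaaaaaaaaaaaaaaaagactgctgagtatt
Cd36 chr5:17345807-17345863 plus strand, AP-1: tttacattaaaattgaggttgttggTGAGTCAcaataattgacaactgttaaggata
Cd36 chr5:17382641-17382698 minus strand, C/EBP: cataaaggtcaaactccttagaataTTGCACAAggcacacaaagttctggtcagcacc
Cd36 chr5:17434581-17434643 minus strand, PPAR-RXR: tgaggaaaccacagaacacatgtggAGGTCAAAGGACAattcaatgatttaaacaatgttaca
The upstream stretch holds 3 CpG at 43.2% GC, and 75.4% of the 22367 upstream stretches of the same length, each at a gene's outermost start, hold at least as many. The 2 gained segments that the SETD5 lists lacked were those with the AP-1 and the PPAR-RXR match, and the one that they held had the C/EBP match. A match describes the letters only.

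**Figure D2:**
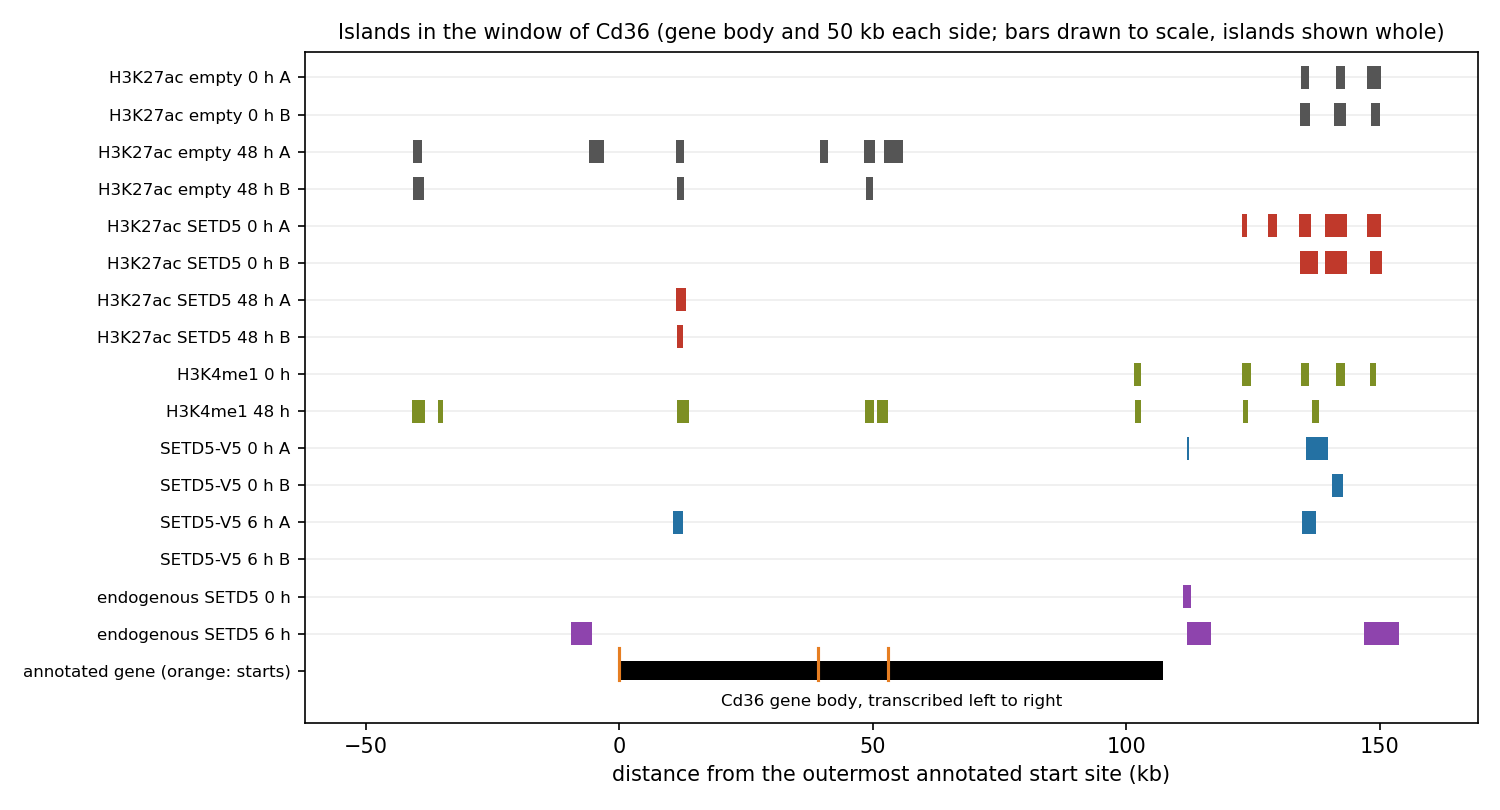
Islands in the window of Cd36 by list, drawn to scale against the distance in kb from the outermost start (positive values run into the gene and beyond it), with 1 line per list. The 0 h islands beyond the far end of the gene are missing from the 48 h H3K27ac lists, where islands appear around and upstream of the starts in the empty-vector lists and 1 island is present in each SETD5 list.

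Slc27a1 encodes FATP1, the insulin-responsive fatty acid transport protein of fat and muscle. It lies at chr8:74092826-74110607 on the plus strand (ENSMUSG00000031808.6) in a crowded window with 8 other coding genes. Its window was covered over 36 and 24 kb at 0 h and 30.4 and 30.0 kb at 48 h with the empty vector, and the groups overlapped (limma, adjusted p = 0.896). With SETD5 the values went from 32.4 and 27.8 kb to 19.2 and 21.0 kb, a fall that passed the test (log2 difference -0.56 ± 0.18, SE, adjusted p = 0.0478, limma). At 48 h the SETD5 lists were below both empty-vector lists, but the difference (-0.57) did not pass the test (limma, adjusted p = 0.0666). The fall with SETD5 lay at the edge of the threshold and was lost without any one list other than the 2 empty-vector lists at 0 h, with adjusted p up to 0.241.

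At the start of Slc27a1 itself the lists were further apart. The island over the start measured 7.2 and 7.0 kb at 0 h and 11 and 12.4 kb at 48 h with the empty vector, against 6.2 and 6.8 kb at 0 h and 3.6 and 4.4 kb at 48 h with SETD5. With the empty vector it thus lengthened in both replicates, and with SETD5 it shortened in both. H3K4me1 was dense over the window, with 44.4 kb at 0 h and 44.2 kb at 48 h.

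Slc27a4, which encodes FATP4, the broadly expressed family member that also has acyl-CoA synthetase activity, changed little. The gene is at chr2:29658154-29673042 on the plus strand (ENSMUSG00000059316.2). Its covered length stayed between 7.0 and 10.0 kb in all 8 H3K27ac lists, and the island at its start measured 0.8 to 1.4 kb throughout. No difference passed the test. One segment was gained at 48 h with the empty vector, in an intron of the neighbour Trub2 at -30.4 kb from the start (chr2:29626201-29629400), and both SETD5 lists held it too.

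Cav1 and Cav2 encode the caveolins of the caveolar coat, of which caveolin-1 is the one that caveolae in fat cells cannot form without. They are neighbours on chromosome 6, with Cav2 at chr6:17231185-17239115 (ENSMUSG00000000058.6) and Cav1 at chr6:17256335-17291452 (ENSMUSG00000007655.9), both on the plus strand, so their windows share most islands and are not independent. For Cav1 the islands covered 35.5 and 26.7 kb at 0 h and 48.8 and 43.8 kb at 48 h with the empty vector, and 24.6 and 21.6 kb at 0 h and 23.6 and 27.4 kb at 48 h with SETD5. The rise with the empty vector passed the test (0.57 ± 0.16, SE, adjusted p = 0.0187, limma), and at 48 h the SETD5 lists lay below (-0.84, 95% interval -1.20 to -0.48, adjusted p = 0.00991, limma). The change with SETD5 did not pass (limma, adjusted p = 0.586), nor did the difference between the changes (limma, adjusted p = 0.321). Both Cav1 calls were lost without single lists: the rise without either 48 h empty-vector list or replicate B at 0 h (adjusted p = 0.122, 0.0526 and 0.115), and the difference at 48 h without replicate A of the empty vector or either SETD5 list at 48 h (adjusted p = 0.0858, 0.089 and 0.0529).

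For Cav2 the empty-vector lists gave 35.4 and 23.6 kb at 0 h and 42.2 and 35.0 kb at 48 h, which overlapped (0.40, adjusted p = 0.119, limma). The SETD5 lists gave 24.4 and 23.8 kb at 0 h and 22.0 and 23.2 kb at 48 h. The 48 h difference between the vectors passed (-0.74, adjusted p = 0.0272, limma) but was lost without any one list other than the 2 empty-vector lists at 0 h, with adjusted p between 0.0599 and 0.182.

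The Cav1 start held one of the highest-scoring islands of the 48 h empty-vector lists. It measured 5.6 and 5.2 kb at 0 h and 14.4 and 15.2 kb at 48 h with the empty vector, where 1.10% and 1.15% of the list's islands scored higher, and stayed at 4.8 and 4.4 kb at 0 h and 5.0 and 5.4 kb at 48 h with SETD5. At the Cav2 start the island measured 3.4 and 3.8 kb at 0 h and 15.2 and 7.8 kb at 48 h with the empty vector, and 2.6 kb in both lists at 0 h and 5.8 and 6.4 kb at 48 h with SETD5. At both starts every empty-vector list at 48 h was longer than every SETD5 list. The one segment gained in the shared window (chr6:17223001-17224200, in an intron of Gm15581, at -7.58 kb from the Cav2 start) was held by both SETD5 lists at 48 h. Part of the Cav1 difference lay in islands that SETD5 cells lacked: downstream of the gene both empty-vector lists at 48 h had an island (2.0 and 2.8 kb, the longer at chr6:17307401-17310200) that neither SETD5 list had at 48 h. Counting islands instead of length gave no lower value with SETD5 (0.072 for Cav1 and 0.42 for Cav2, adjusted p = 1 and 0.338, limma). The 250 bases upstream of the Cav1 and Slc27a1 starts (plus strand), over which these islands extended, are shown with CpG in capitals.
Cav1 upstream, chr6:17256085-17256334 plus strand: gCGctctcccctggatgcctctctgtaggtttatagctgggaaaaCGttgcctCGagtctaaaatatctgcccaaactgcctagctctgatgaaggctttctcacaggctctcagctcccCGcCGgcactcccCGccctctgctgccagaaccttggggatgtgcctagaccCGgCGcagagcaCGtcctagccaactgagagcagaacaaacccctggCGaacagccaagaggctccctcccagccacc
Slc27a1 upstream, chr8:74092576-74092825 plus strand: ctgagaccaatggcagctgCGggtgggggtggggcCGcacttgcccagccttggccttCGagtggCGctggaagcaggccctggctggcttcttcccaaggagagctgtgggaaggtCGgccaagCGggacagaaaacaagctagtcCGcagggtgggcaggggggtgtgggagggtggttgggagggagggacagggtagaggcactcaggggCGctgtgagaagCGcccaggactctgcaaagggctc
The Cav1 stretch holds 10 CpG at 59.6% GC and the Slc27a1 stretch 9 at 66.4%, near the median of 8 over all upstream stretches.

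Fabp3, the heart-type fatty acid binding protein of muscle and heart, was the gene with the least signal. It lies at chr4:129985839-129992707 on the plus strand (ENSMUSG00000028773.8), and no list of any mark had an island at its start. A single H3K27ac island of its window was present in each list, near the far edge of the window, with 1.2 and 1.4 kb at 0 h and 2.2 and 1.8 kb at 48 h with the empty vector, and 1.4 and 1.6 kb then 1.2 kb in both lists with SETD5. None of its differences passed the test.

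Acsl1 encodes the main long-chain acyl-CoA synthetase of adipocytes, which activates fatty acids taken up by the cell. The gene is at chr8:47556395-47621405 on the plus strand (ENSMUSG00000018796.6), with Mlf1ip and Ccdc111 as the other coding genes in its window. With the empty vector its islands covered 8.0 and 5.2 kb at 0 h (3 and 4 islands) and 55.4 and 38.8 kb at 48 h (8 and 9 islands). The mean rose from 6.60 kb ± 1.98 to 47.1 kb ± 11.7 (SD, n = 2 lists each; adjusted p = 0.000101, limma), 7.14 times in covered length and 2.67 on the log2 scale (SE 0.26). With SETD5 the values were 6.2 and 5.4 kb at 0 h and 10.4 and 6.6 kb at 48 h. The groups did not overlap there, but the difference did not pass the test (0.46, 95% interval -0.14 to 1.05, adjusted p = 0.243, limma). At 48 h both SETD5 lists were below both empty-vector lists (log2 difference -2.35, 95% interval -2.94 to -1.75, adjusted p = 0.00145, limma), and the changes of the vectors differed by -2.21 ± 0.37 (SE, adjusted p = 0.0211, limma). The rise and the 48 h difference passed without any one list. By the number of islands the rise did not pass (limma, adjusted p = 0.066). The 48 h difference did not pass by the number of islands or with islands above the median score (limma, adjusted p up to 0.342). The difference between the changes was lost without any one list other than replicate A at 0 h and replicate B at 48 h of the empty vector, with adjusted p between 0.072 and 0.104.

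The added H3K27ac at Acsl1 spread over the start and over 3 upstream blocks. The island at the start measured 2.8 and 1.4 kb at 0 h, and at 48 h with the empty vector it reached 21.8 kb (from -3.59 to 18.2 kb around the start) in replicate A and 12 kb (from -3.99 to 8.0 kb) in replicate B, with 1.25% and 2.14% of the list's islands scoring higher. With SETD5 it measured 2.0 and 1.4 kb at 0 h and 3.0 and 3.6 kb at 48 h, with 11.6% and 12.1% of islands scoring higher. A second block, from -46.0 to -34.6 kb in replicate A, was 11.4 and 10.2 kb long with the empty vector at 48 h, and the SETD5 lists had only short islands there, of 0.6 to 1.4 kb. The other blocks, which began at -57.8 and -29.6 kb in replicate A, had no counterpart with SETD5.

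Of the 5 segments that Acsl1 gained in both empty-vector lists, 2 lay in intergenic sequence at -51.2 and -26.4 kb from the start (chr8:47503201-47507200, which crosses the edge of the window, and chr8:47527401-47532600). Another 2 lay in introns (chr8:47565601-47567600 and chr8:47568201-47571400). The last covered an exon and the inner start at 47578186 (chr8:47577001-47579200). Both SETD5 lists lacked 4 of the 5 segments, and replicate A alone held the longer intronic segment. The 3 segments inside the gene had H3K4me1 at both 0 h and 48 h, whereas the 2 upstream had none at either time. The upstream 250 bases of the Acsl1 start, where the island of 48 h was longest, are printed with CpG in capitals, followed by motif matches in gained segments with the match in capitals.
Acsl1 upstream, chr8:47556145-47556394 plus strand: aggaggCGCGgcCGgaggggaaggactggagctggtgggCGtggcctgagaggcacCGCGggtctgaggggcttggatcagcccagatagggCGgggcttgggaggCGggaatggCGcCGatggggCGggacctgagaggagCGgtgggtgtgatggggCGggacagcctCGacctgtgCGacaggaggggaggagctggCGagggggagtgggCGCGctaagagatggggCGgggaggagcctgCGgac
Acsl1 chr8:47505612-47505669 minus strand, C/EBP: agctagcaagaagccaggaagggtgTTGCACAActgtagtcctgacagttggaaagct
Acsl1 chr8:47528325-47528382 plus strand, C/EBP: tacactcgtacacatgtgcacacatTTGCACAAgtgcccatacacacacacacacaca
Acsl1 chr8:47569862-47569924 minus strand, PPAR-RXR: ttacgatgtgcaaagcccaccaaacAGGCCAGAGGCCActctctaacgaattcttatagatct
The upstream stretch holds 20 CpG at 72% GC, and 21.0% of all upstream stretches hold at least as many. The printed stretches are a choice among the matches at Acsl1. The 2 upstream segments, which both SETD5 lists lacked, hold C/EBP matches and matches to TGANTCA, the letters searched for AP-1. In the farther of them the only match to TGANTCA is TGATTCA, which is not the AP-1 core. The intronic segment that replicate A of SETD5 held has C/EBP matches beside the PPAR-RXR match. The other 2 segments, also lacked by both SETD5 lists, hold no match.

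**Figure D3:**
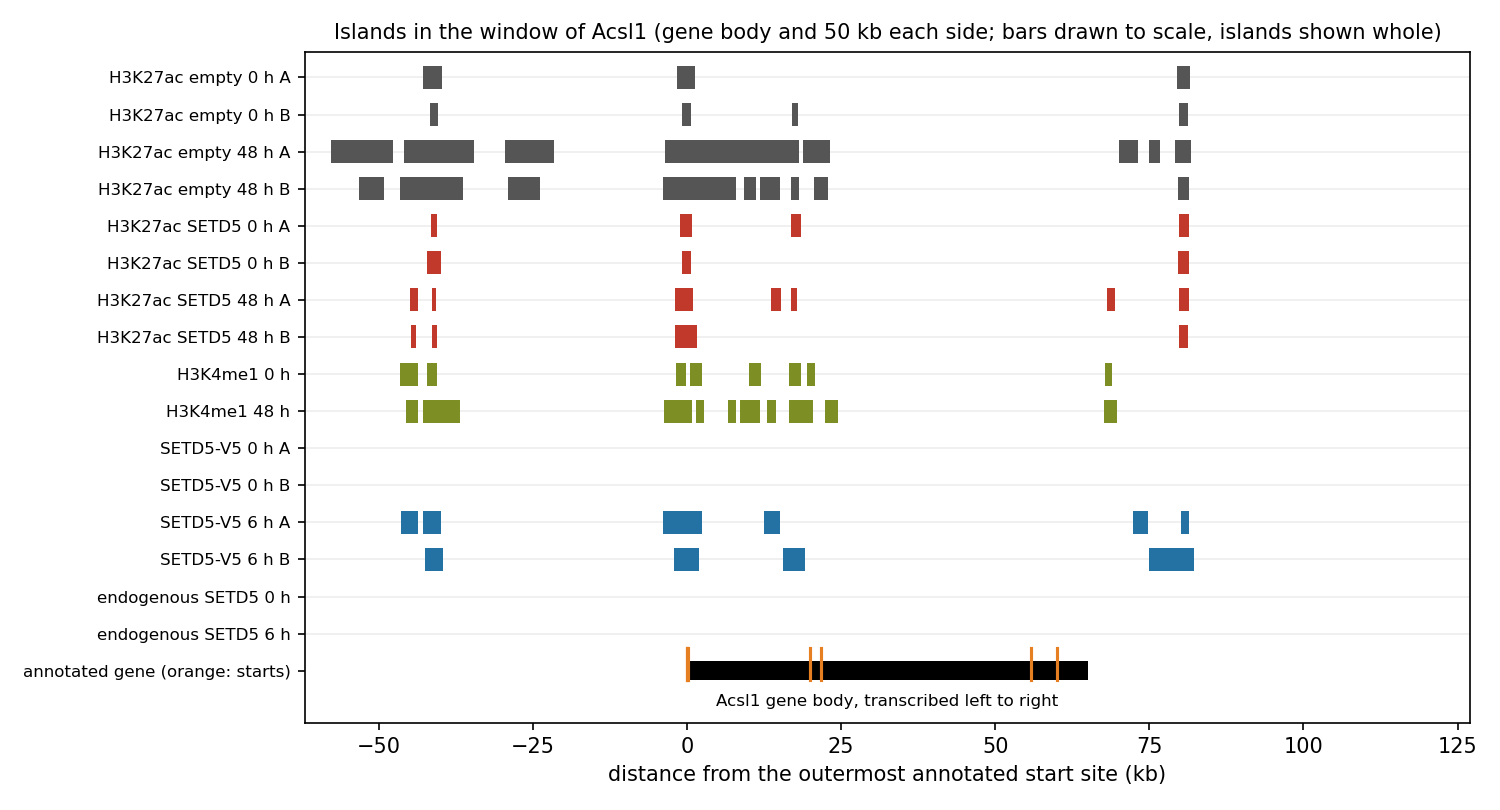
Islands in the window of Acsl1 by list, to scale against the distance in kb from its outermost start, with 1 line per list. The empty-vector lists at 48 h show the 21.8 and 12 kb islands at the start and the 11.4 and 10.2 kb islands upstream, and the SETD5 lists at 48 h show 3.0 and 3.6 kb at the start.

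Acsl4 encodes the synthetase that prefers arachidonic acid and other polyunsaturated fatty acids, and it behaved unlike Acsl1. It lies on the minus strand at chrX:138752536-138825078 (ENSMUSG00000031278.6). With the empty vector its islands covered 9.6 and 8.2 kb at 0 h and 14.8 and 13.4 kb at 48 h (0.61 ± 0.17, SE, adjusted p = 0.0215, limma), and with SETD5 10.6 and 12 kb at 0 h and 16.4 and 22.0 kb at 48 h (0.70 ± 0.17, SE, adjusted p = 0.0159, limma). Both rises passed, and at 48 h both SETD5 lists lay above both empty-vector lists without passing the test (limma, adjusted p = 0.156). The changes of the vectors did not differ by the test (0.093, 95% interval -0.47 to 0.65, limma, adjusted p = 0.882). The empty-vector rise was lost without either 48 h list or without replicate B at 0 h (adjusted p = 0.114, 0.0561 and 0.115), and the rise with SETD5 without either 0 h list or without replicate B at 48 h (adjusted p = 0.105, 0.0542 and 0.127). Both gained segments, at -36.1 and -43.7 kb from the start (chrX:138860001-138862400 and chrX:138866801-138870800), were present in both SETD5 lists at 48 h. The rise lay outside the nearer sequence: with 20 kb on each side the empty-vector difference was -0.31 (adjusted p = 0.405, limma).

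Read over the starts alone, a measure added after the data were seen, 6 of the 8 genes had an H3K27ac island in all 8 lists, as did 8857 genes in all, where the median island was 2.2 to 2.8 kb long. At 4 of the 6 (Slc27a1, Cav1, Cav2 and Acsl1) both 48 h empty-vector islands were longer than both 0 h islands, against 29.4% of the 8857. The same 4 had both SETD5 islands shorter than both empty-vector islands at 48 h, against 27.4%. Being longer at 48 h with the empty vector than both at 0 h and with SETD5 held for these 4 and for 15.2% of the 8857. At 3 of the 6 (Slc27a1, Cav1 and Acsl1) both empty-vector islands at 48 h were at least 10 kb long, which 3.86% of the 8857 were. With SETD5 the island lengthened from 0 h to 48 h at 4 of the 6 (Cav1, Cav2, Acsl1 and Acsl4), against 18%.

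**Figure D4:**
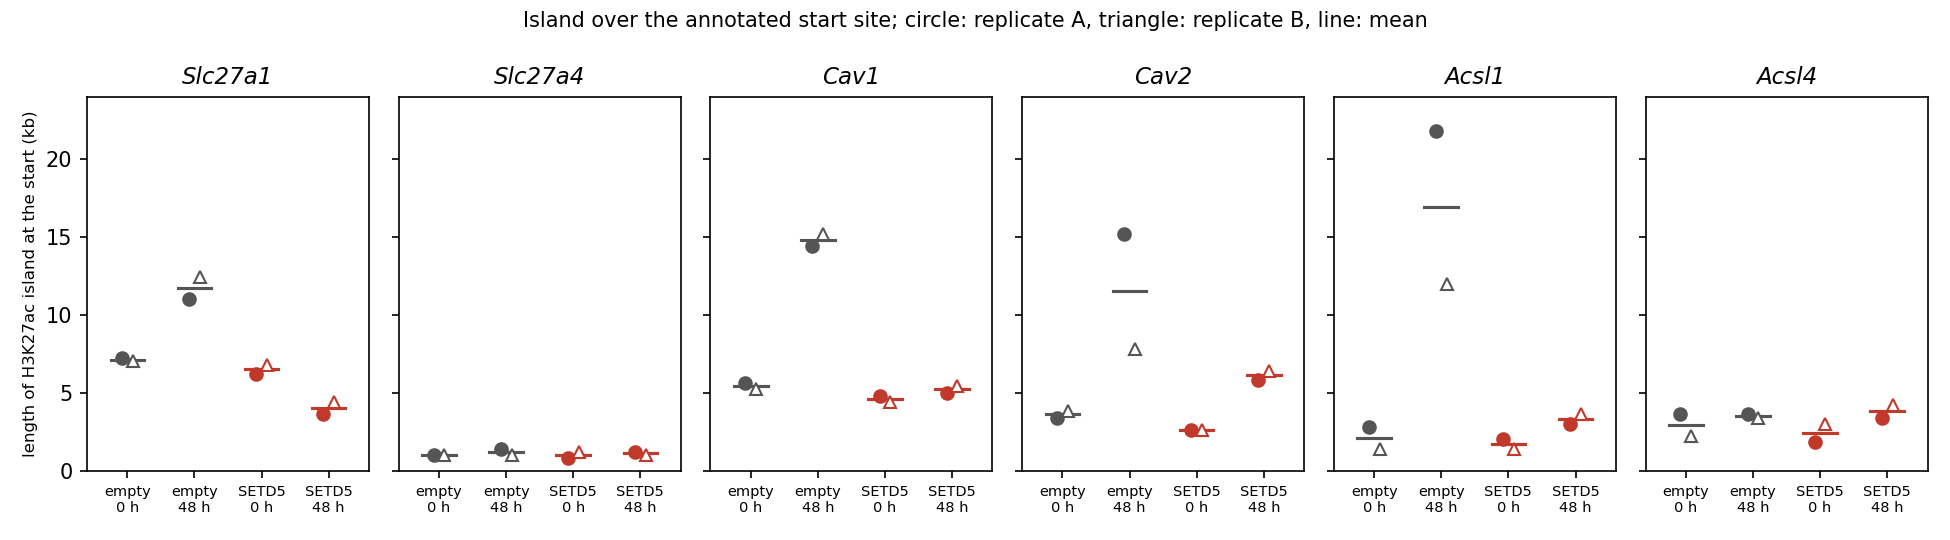
Length in kb of the H3K27ac island over the outermost annotated start of the 6 genes that had one in all 8 lists, by vector and time; each point is 1 list. At Slc27a1, Cav1, Cav2 and Acsl1 both empty-vector points at 48 h lie above both SETD5 points, while Slc27a4 and Acsl4 stay between 0.8 and 4.2 kb.

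Counted over the windows together, 37 distinct segments were shared by both empty-vector lists at 48 h, and 12 of these (32.4%) were new, that is, without overlap to either 0 h list, beside 23.3% over all gene windows. Both SETD5 lists lacked 6 of the 12 (23.6% of new segments over all windows), 1 was in a single SETD5 list and 5 were in both (64% over all windows). The 6 belonged to Acsl1 (4) and Cd36 (2). H3K4me1 lay on 3 of the 12 at 0 h (39.3% over all windows) and on 8 at 48 h (66.4%). In the opposite direction, 6 of the 31 segments shared at 0 h were lost by 48 h with the empty vector, 3 of them at Cd36 and 1 each at Slc27a1, Cav2 and Acsl4, beside 22.5% over all windows. Neither SETD5 list at 48 h held any of the 6 (61.2% over all windows, with 25.4% held by both). With so few segments these shares describe the windows and no test was made.

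Motifs were searched by their letters on both strands in the 12 new segments. TTGCNNAA, the core that C/EBP factors bind, was in 8 of the 12 (0.660 matches per kb) and in 66.6% of all 7420 new segments of the genome (0.590 per kb). The PPAR-RXR direct repeat, AGGNCA followed after 1 base by AGGNCA, was in 2 of the 12 and in 5.16% of all, and its strict form, with AGGTCA in both places, in 0 of the 12 and 0.660% of all. TGANTCA, searched for AP-1, was in 6 of the 12 (0.503 per kb) and in 57.3% of all (0.428 per kb). These letters hold the AP-1 core, TGACTCA or TGAGTCA, but also let in TGAATCA and TGATTCA, which are not that core. The shares for TGANTCA are thus upper bounds for AP-1. Promoters were taken as 250 bases before to 50 bases after the outermost start of each gene. There TTGCNNAA was in 10.3% of the 22367 genes, the PPAR-RXR repeat in 0.402% and TGANTCA in 6.93%. The 8 genes were searched at every annotated start, a wider search than that behind these shares. Among them only the promoters of Cav2 (TTGCNNAA and TGANTCA) and of an inner Acsl1 start (TTGCNNAA) held a match. The letters of the C/EBP and AP-1 cores may overlap other motifs, and the frequent ones occur in most long segments.

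H3K4me1, with 1 list per time and no test, covered 1.5 times or more at 48 h than at 0 h in 2 of the windows, Acsl1 (14.6 kb to 28.0 kb, log2 0.89) and Cd36 (7.8 kb to 13.4 kb, log2 0.71), where 28.4% of the 15428 windows did so and the median was 0.24. Cav1 went from 48.8 to 60.2 kb, Cav2 from 44.8 to 50.2 kb and Slc27a4 from 6.0 to 8.4 kb. The single H3K4me1 island in the window of Fabp3, 1.4 kb at 0 h, was listed at 0 at 48 h. Acsl4 had no H3K4me1 island at either time, on a chromosome X that had 0.111 and 0.074 of the genome's island density in these lists.

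SETD5-V5 islands lay on the caveolin genes in both lists at 0 h, whereas at Acsl1, Acsl4 and Slc27a4 both replicates had them only at 6 h. These windows had no island at 0 h and so entered the test through their 6 h lists alone. That fixes the direction and leaves any call there a description. Other acyl-CoA synthetases also had islands in both replicates only at 6 h: Acsl3 (6.0 and 4.8 kb), Acsbg1 (9.4 and 1.8 kb) and Acsbg2 (4.8 and 2.4 kb). Acsl5 had 10.4 kb in replicate A and 0 kb in replicate B at 0 h, and 49.7 and 40.3 kb at 6 h. Acsl6 had no island at either time. By limma, 2 of the 7 windows tested rose (Acsl1 and Acsl4) and 0 fell, against 7.52% upward, 0.0474% downward and 7.57% in either direction of 14764 windows. Acsl1 was listed at 0 in both 0 h lists and had 18.2 and 18.0 kb at 6 h, with islands of 6.4 and 4.2 kb over its start (limma, adjusted p = 0.0471). Acsl4 lies on chromosome X, where the SETD5-V5 island density was 0.105 and 0.250 of the genome's at 0 h and 0.214 and 0.160 at 6 h. The part of this in the Acsl4 values was not tested. The gene was likewise listed at 0 in both 0 h lists and had 66.6 and 48.6 kb at 6 h, with islands of 6.4 and 22.0 kb over its start (limma, adjusted p = 0.0471). The longest island of replicate A, 37.4 kb, lay inside the gene body from 6.28 to 43.7 kb past the start, while the longest of replicate B was the 22.0 kb island at the start. Both calls were lost without the small 0 h list of replicate B (limma, adjusted p = 0.22 for each) and under every alternative setting but the count of islands (limma, adjusted p between 0.0524 and 0.682).

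Cav1 had SETD5-V5 islands over its start in all 4 lists, of 12.6 and 4.2 kb at 0 h and 19.0 and 15.6 kb at 6 h. Its window went from 43.0 and 16.8 kb to 94.7 and 82.9 kb, and that of Cav2 from 39.6 and 16.8 kb to 87.3 and 79.9 kb. The lists did not overlap between the times, but neither difference passed (limma, adjusted p = 0.17 for Cav1 and 0.161 for Cav2), where 62% of all windows were higher without overlap and the median log2 difference over all windows was 1.81.

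At the transporters SETD5-V5 was less regular between the replicates. Cd36 had 4.8 and 2.2 kb at 0 h and 4.8 and 0 kb at 6 h, Slc27a1 24.4 and 0 kb and then 31.6 and 8.2 kb, and Slc27a4 0 kb in both and then 12.2 and 1.4 kb. Fabp3 had 2.4 kb in replicate A at 6 h alone and was too low to test. SETD5-V5 of both replicates at 6 h lay on 3 of the 12 new H3K27ac segments, those of Slc27a4, of the shared Cav1 and Cav2 window and the nearer one of Acsl4, beside 37.9% over all windows, and both SETD5 lists at 48 h held all 3. At 0 h it lay on 0 of the 12, beside 14.1%.

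**Figure D5:**
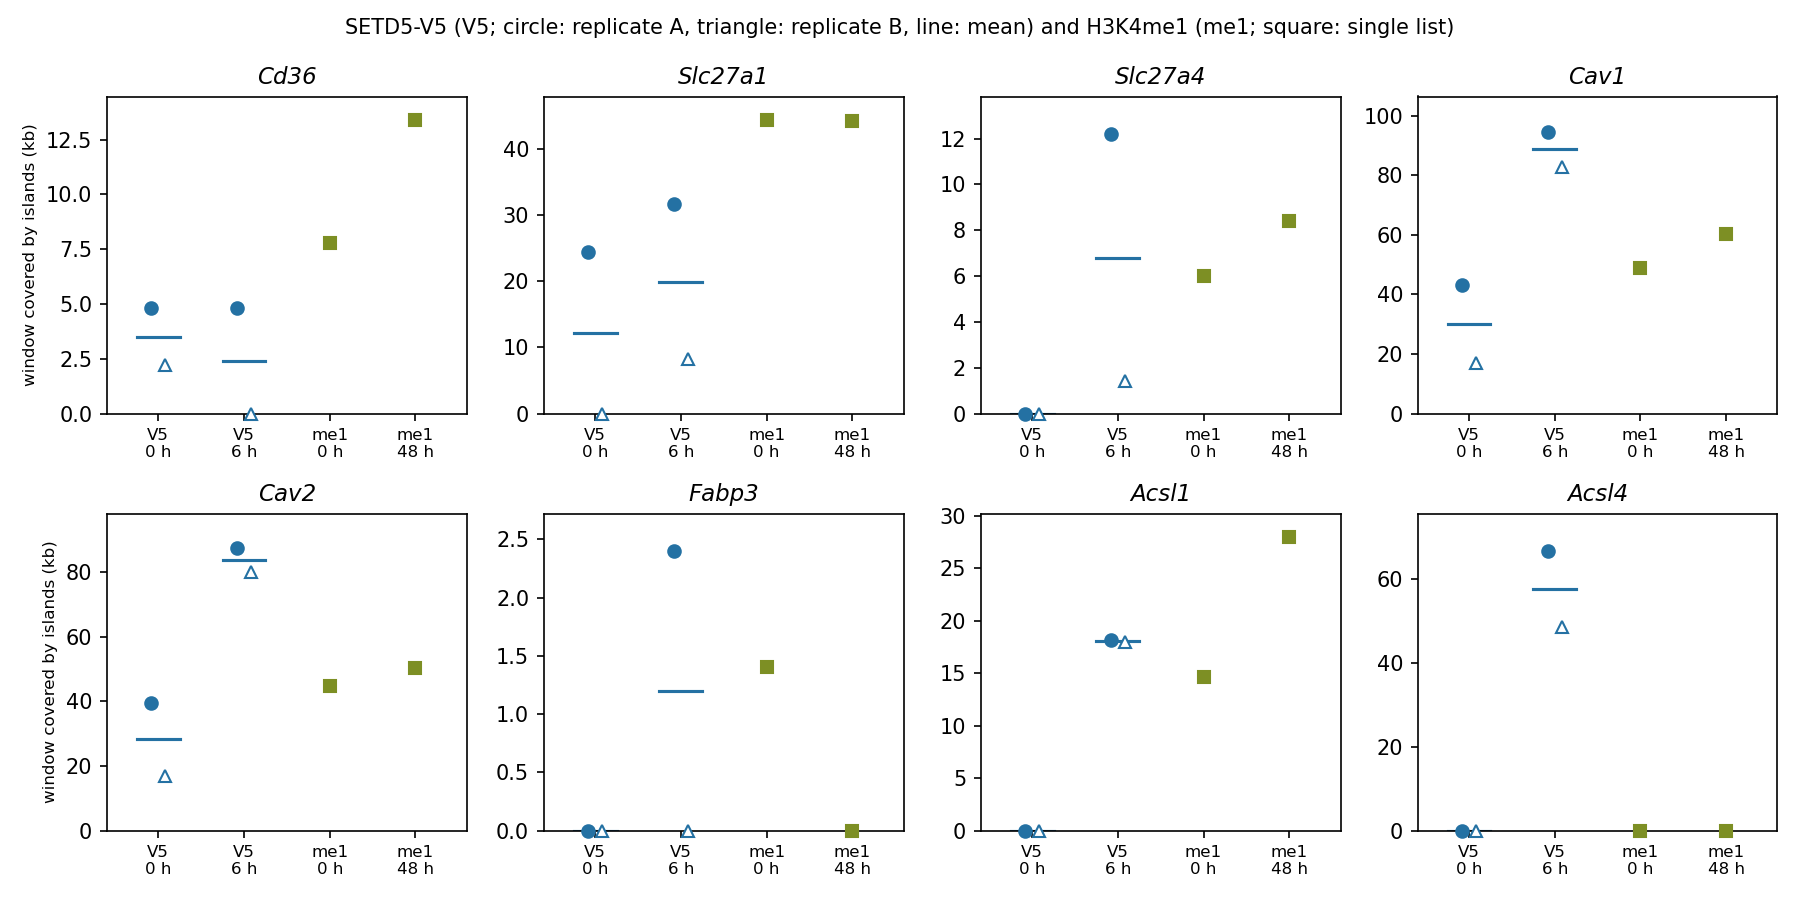
Kilobases of each gene window covered by SETD5-V5 islands at 0 h and 6 h (2 lists at each time) and by H3K4me1 islands at 0 h and 48 h (1 list at each time); each point is 1 list. SETD5-V5 at Acsl4 goes from 0 kb in both lists to 66.6 and 48.6 kb, and at Cav1 from 43.0 and 16.8 kb to 94.7 and 82.9 kb.

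Endogenous SETD5 touched few of the windows. At 6 h it had 1 island of 5.2 kb in the Cav1 window (chr6:17257001-17262200), which covers the inner starts of the gene, and 3 islands of 6.8, 4.8 and 4.2 kb at Cd36, 15.8 kb in all against 1.6 kb at 0 h. These values stand beside an island density on chromosome 5 that was 3.51 times the genome's at 0 h and 3.31 times at 6 h in these lists, and their part in the Cd36 value was not tested. None of the Cd36 islands at 6 h overlapped a segment that gained H3K27ac, and the longest overlapped one of the 3 segments that lost it. The windows of Slc27a1, Slc27a4, Fabp3, Acsl1 and Acsl4 had no endogenous SETD5 island at either time.

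Among 24 other genes of uptake, binding, activation and lipolytic supply, 19 were covered enough to test. They were listed by their function, with earlier results of these data known. With the empty vector 7 rose from 0 h to 48 h and 1 fell by limma, beside 25.2% upward and 14% downward over all windows, with a median of 0.49 beside 0.14. Fabp4, the adipocyte fatty acid binding protein, went from 2.6 and 2.8 kb to 29.1 and 23.0 kb (2.86, adjusted p = 1.22e-05, limma), a rise like that of Acsl1. Fabp5, an epidermal-type binding protein, rose by 1.76, Dbi, which binds acyl-CoA esters, by 1.10, and Lpl, the lipase that releases fatty acids from lipoproteins, by 0.81 on the log2 scale. Acsl5 and Acsbg1, both acyl-CoA synthetases, rose by 0.60 and 0.86, and Prkcdbp, the caveolar coat protein cavin-3, by 1.09. Gpihbp1, the anchor of that lipase on capillary walls, fell by 1.23. With SETD5 3 of the 19 rose over the same time (Fabp4 0.77, Prkcdbp 0.85 and Vldlr, a lipoprotein receptor, 0.61) and 2 fell (Acsbg1 -0.64 and Gpihbp1 -2.37), beside 15.8% upward and 12.6% downward over all windows. Before differentiation 1 of the 19 differed between the vectors, Fabp4, which was higher with SETD5 (0.86, adjusted p = 0.0385, limma), beside 1.62% upward. At 48 h 5 of the 19 were lower with SETD5 than with the empty vector and 0 higher (Acsl5 -0.99, Acsbg1 -1.13, Fabp4 -1.24, Lpl -0.89 and Gpihbp1 -1.0), beside 8.65% lower and 7.48% higher over all windows, with a median of -0.32. Fabp4 differed in its change between the vectors (-2.09, adjusted p = 0.00898, limma), with a rise in both and a higher 0 h level with SETD5, as did Acsbg1, which rose with the empty vector and fell with SETD5 (-1.50, adjusted p = 0.0144, limma). SETD5-V5 passed limma's adjusted threshold in 0 of the 16 tested, beside 7.57% of all windows, and 7 of the 16 had an unadjusted p under 0.05 beside 29.6% of all. Of these 7 only Lpl had islands at 0 h (mean 21.4 kb, and 68.3 kb at 6 h). Slc27a3, Acsl3, Acsbg1, Acsbg2, Fabp2 and Fabp4 had 0 kb in both 0 h lists. They entered the test through their 6 h lists alone, which fixes the direction and leaves the count a description.

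By the distance between log2 covered lengths over the 8 H3K27ac lists, the windows most like Cd36 were Odf2l (1.29), Znrf2 (1.40) and Qpct (1.47). Their 1.2 to 3.4 kb in the SETD5 lists at 48 h entered that distance and so follows from the choice.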

How the data were processed

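The deposited files are 16 island lists on mm9 with a score column, 1 per library. According to the methods, the authors mapped the first 36 bases of each read with ELAND or Bowtie2 and called islands with SICER (200-bp windows joined over gaps of up to 400 bp in the H3K27ac and H3K4me1 data or 600 bp in the SETD5 data, E-value 100). The deposited score served only to rank islands within a list, as the percentage of the list that scored higher. Read depth is not given in the lists, and scores were not compared between libraries. The authors report total reads per library, which were not used here. They were higher in every SETD5 library of H3K27ac than in any with the empty vector. The part of depth in the differences between the vectors was not tested.

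Covered length per gene window (gene body and 50 kb each side, 22367 protein-coding genes of the NCBIM37 annotation) was analysed as log2(kb + 1) with limma 3.58.1 in R 4.3.3, with a mean-variance trend and Benjamini-Hochberg adjustment over all windows with a mean of at least 1 kb, so fold changes of low windows are understated. The 8 H3K27ac lists were fitted together and the 4 SETD5-V5 lists apart. An exact permutation test of 2 against 2 lists cannot go below 0.333. Segments are stretches of at least 200 bp shared by both empty-vector lists. Sequences were read from the NCBIM37 genome, upstream stretches printed only before the start. The fits were tested on simulated data. Named genes were all 8 members, the called genes of the pathway list and the 3 windows most like Cd36. The members, the pathway list and the tests were chosen with earlier results of these data known, and the printed sequences, the lost segments and the start islands after the values were seen. Scripts ran under Python 3.11.15 with numpy 2.4.6 and matplotlib 3.10.9.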

Additional observations from a re-analysis of the deposited data

Results flagged for a closer look

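The change of H3K27ac covered length from 0 h to 48 h differed between SETD5 and the empty vector, by the interaction term of the limma fit over all windows, at Acsl1 (-2.21 on the log2 scale) and Cd36 (-2.63), and among the other pathway genes at Fabp4 (-2.09) and Acsbg1 (-1.50). In all 4 the change with SETD5 was the lower one, and at Fabp4 the 0 h level with SETD5 was the higher one. At Acsl1 and Fabp4 the empty-vector lists rose steeply, whereas at Cd36 the covered length rested on islands at different positions at 0 h and 48 h.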

How the results depend on the processing

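Each count of called windows among the 8 genes was recomputed with other windows, filters, pseudocounts, scalings and lists left out. With the number of islands in place of covered length, 0 windows were called in the 5 H3K27ac comparisons in place of 3 (48 h against 0 h, empty vector), 3 (48 h against 0 h, SETD5), 4 (SETD5 against the empty vector at 48 h) and 2 (difference between the changes), while SETD5-V5 kept a count of 2. With 20 kb on each side the counts were 0 for SETD5 over time, 1 at 48 h and 0 for the difference between the changes. Without the filter on low windows they were 1 at 48 h and 0 for the difference between the changes. That difference had 1 call with equal numbers of islands, 1 with islands above the median score (Fabp3) and 1 without the variance trend. SETD5-V5 had 0 calls under every other alternative, also with the replicate letter as a block. Leaving out single lists gave 1 to 4 calls for the empty vector over time, 1 to 3 for SETD5 over time, 0 to 0 before differentiation, 1 to 5 at 48 h, 0 to 2 for the difference between the changes and 0 to 4 for SETD5-V5 (0 without replicate B at 0 h, 4 without replicate A at 0 h). New segments numbered 6, of which 3 in neither SETD5 list, with 20 kb windows, and 14 to 15 and 7 to 11 with single replicates left out. H3K4me1 had 1 window past 1.5 times with 100 kb windows and 1 with a pseudocount of 5 kb. The cause of these shifts was not tested. Directions turned for Cd36 over time with the empty vector (-0.051 with 100 kb, -0.88 above the median score, and -0.31 to 1.04 without single lists, lowest without replicate A at 48 h) and with SETD5 (0.86 with 20 kb), for Acsl4 with the empty vector (-0.31 with 20 kb), and by the number of islands for Cav2 over time (-0.42) and for Slc27a1, Cav1 and Cav2 at 48 h (0.26, 0.072 and 0.42). A fit with the replicate block called the same number of H3K27ac windows, 3, 3, 0, 4 and 2, and the deviations of same-letter lists correlated between -0.03 and 0.12, which does not show that the letters pair the lists. The labels do not say whether a letter marks a shared culture or day. Over all windows, 6681 were called for the empty vector over time (3301 to 7842 over the alternatives), 4839 for SETD5 over time (2743 to 5976), 433 before differentiation (35 to 980), 2748 at 48 h (702 to 3945), 619 for the difference between the changes (0 to 1473) and 1117 for SETD5-V5 (0 to 6003). The upward share of all calls at 48 h was 46.4%, 30.3% with equal numbers of islands, 53.1% above the median score, 76.9% by number of islands, and 41.1% to 65.7% without single lists (65.7% and 62.2% without replicate A at 48 h of the empty vector and of SETD5). Before differentiation it was 63.7%, and 38.9% with equal numbers of islands. With 2 lists per group and no read depth in the files, small differences were not detectable, and a length depends on how the caller joined neighbouring windows.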
